A study of Homo sapiens with 6 samples.

Results

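Mitochondrial chaperones and proteases were followed here as 10 named genes of the mitochondrial unfolded protein response, taken from the 60651 genes listed for each library. They are the chaperones HSPD1, HSPE1, HSPA9, DNAJA3 and TRAP1 and the proteases LONP1, CLPP, CLPX, YME1L1 and AFG3L2. They were taken by name as a functional group, with earlier results of these data known, and all 10 passed the filter on low counts. RNA came from SK-N-AS, an established human neuroblastoma cell line without amplified MYCN. The cells carried a tetracycline repressor and a MYCN gene under its control, and were kept as single clones under selection with G418 and blasticidin, in both groups alike. The labels do not say how many clones entered the libraries, which were made from total RNA after ribosomal RNA was removed. The 3 control libraries (labelled ETOH, which the labels do not spell out) and the 3 MYCN-induced libraries (labelled Tet) were harvested at 120 h, which for the induced group means 5 days with tetracycline. Tetracycline also acts on mitochondrial ribosomes, and cells given tetracycline without the MYCN construct were not analysed here, so the effects of the drug and of MYCN cannot be told apart.

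Most mitochondrial proteins are made in the cytosol, imported unfolded, and folded in the matrix by Hsp70 and by the barrel-shaped chaperonin of Hsp60 and its Hsp10 lid. Proteins that fail to fold are cut up by AAA+ proteases, of which LONP1 and ClpXP work in the matrix and YME1L1 and AFG3L2 in the inner membrane. When unfolded proteins build up in mitochondria, cells can raise these genes, and ATF4, ATF5, CHOP (DDIT3) and HSF1 are transcription factors linked to that response.

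MYC family proteins bind the E-box letters CACGTG, and these were searched in the promoter windows of RefSeq (GRCh38.p14, 250 bases before to 50 after a start site), which held 8 of the 10 genes. The letters stood in the windows of 4 of these 8 genes (HSPD1, HSPE1, HSPA9 and LONP1), against 8.8% of all 27305 genes with a window. The windows of DNAJA3, TRAP1, CLPX and AFG3L2 did not hold the letters. HSPD1 and HSPE1 were counted through a single shared copy, and no share was taken over genes of like level or base content. Of the 2 genes called higher below (edgeR, adjusted p under 0.05), HSPA9 had the letters and TRAP1 did not. Whether the letters go with the size of a change was not tested. The letters read the same on both strands. The stretches around them are shown because HSPD1 and HSPE1 lie head to head and hold a single copy in common, and because HSPA9 and LONP1 had the largest fitted changes of the chaperones and of the proteases. Capitals mark the E-box.
HSPE1 and HSPD1, chr2:197500345-197500374, plus strand: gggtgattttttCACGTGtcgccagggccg
HSPA9, chr5:138575403-138575432, minus strand: cgcccctcacccCACGTGgttggaggtttc
LONP1, distal, chr19:5720341-5720370, minus strand: ctcacagccttcCACGTGaccggaaaaggc
LONP1, proximal, chr19:5720178-5720207, minus strand: cgcgccgggcgtCACGTGcgtttcgcggcg
Counted in bases from a start site, with minus for bases before it, the shared copy begins at -22 for HSPE1 and at -88 for 1 start site of HSPD1. In HSPA9 the letters begin at -19, and in LONP1 at -212 and -49 from 1 start site. The window of another LONP1 start site held none, and both copies lie after that site. A pattern of ATF4 binding, TGATGNAA, was in the windows of 0 of the 8 genes (4.5% of all genes), and the heat shock pattern GAANNTTC was in 1, HSPD1 (8.2% of all genes), both searched on both strands. These matches are letters in a window and no measured binding.

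The libraries held 64500589 to 102249336 counted read pairs. MYCN was at 30.3, 35.5 and 32.4 CPM (counts scaled to library size) in control replicates 1, 2 and 3 and at 211, 221 and 199 CPM in the induced ones, so the labels and the induced gene went together. The sympathetic markers HAND2, GATA3 and ISL1 were present in every library (168 to 285 TPM, a level scaled for exon length and library size, for HAND2), as were the mesenchymal markers VIM, FN1, YAP1 and PRRX1. PRRX1 was the lowest of them at 0.802 to 2.34 TPM, and FN1 lay at 2.34 to 6.09 TPM. Of these 7 markers, FN1, which encodes fibronectin, was called lower in the induced libraries (60.5, 58.7 and 50.9 CPM in the controls, 39.7, 36.3 and 28.4 CPM in the induced libraries, log2 fold change -0.70, edgeR adjusted p = 0.033). The groups also did not overlap for ISL1 (-0.55, edgeR adjusted p = 0.0562) and VIM (0.30, edgeR adjusted p = 0.0595). PRRX1 had a log2 fold change of 0.72, with overlapping groups (edgeR adjusted p = 0.201). The part of these marker differences in the results was not tested. Of 5 markers of other cells, CD3E was at 0 in every library and PTPRC, PECAM1, EPCAM and ALB reached at most 0.414 TPM. Transcripts of the mitochondrial genome took 13.4% to 14.1% of counts in the controls and 11.9% to 14.2% in the induced libraries. MYCN-induced replicate 3 stood apart, at 69.1 on the first principal component where the controls lay between -40.3 and -25.9 and the remaining induced libraries between 13.1 and 14.4. The labels do not say whether the libraries of a group came from separate cultures, so the p-values measure the spread between these libraries.

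All 10 genes had a fitted log2 fold change above 0 in MYCN-induced cells. This held for 49.9% of all tested genes and for 60.3% of those at a mean of at least 10 CPM. It also held for 8 of 8 tested chaperones of the cytosol and endoplasmic reticulum, 15 of 20 import genes and 12 of 17 other proteases. Of the 10 genes, 2 rose past the threshold. These were HSPA9 and TRAP1, the matrix forms of Hsp70 and Hsp90. In bulk RNA such a difference can come from a larger share of the RNA in each cell or from more cells with it. These cannot be told apart. All values are relative to the counts of a library, and the spike-in rows were at 0. Amounts of RNA per cell were therefore not measured. Across all genes tested, 1.02% were called higher and 2.38% lower (edgeR, adjusted p under 0.05), and 1.80% of the genes at a mean of at least 10 CPM were called higher. At an unadjusted p under 0.05, 7 of the 10 were higher and 0 lower, against 8.13% higher and 10.6% lower of all tested genes and 13.3% higher of those at 10 CPM or more. DESeq2 called 4 higher and 0 lower, and 3.11% of all genes higher. The median log2 fold change of the 10 genes was 0.31, beside 0.00 for all 29086 tested genes and 0.04 for the 10158 at a mean of at least 10 CPM. In 8 of the 10, every induced library lay above every control in CPM, which held for 11.5% of all tested genes and for 19.1% of those at 10 CPM or more. Together the 10 genes took 0.167% to 0.169% of counts in the controls and 0.190% to 0.225% in the induced libraries.

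**Figure D1:**
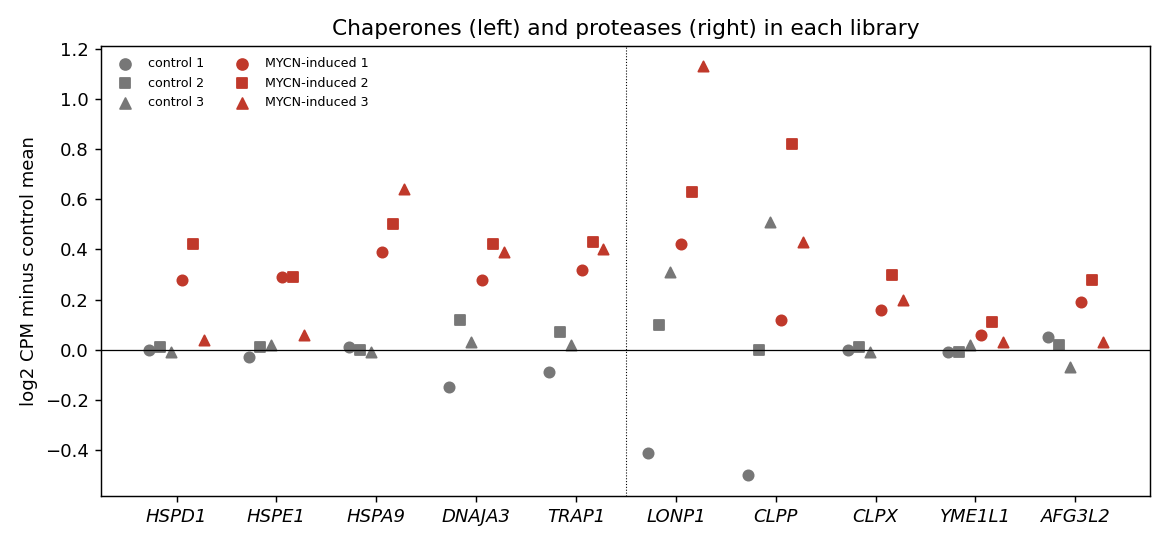
Log2 CPM of each gene in each library minus the mean of the 3 controls, with chaperones left and proteases right of the dotted line; grey is control and red MYCN-induced, and the marker shape gives the replicate number. HSPA9 shows tight controls and induced values of 0.39, 0.50 and 0.64, while the controls of LONP1 and CLPP spread from -0.41 to 0.31 and from -0.50 to 0.51.

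HSPD1 encodes Hsp60, the barrel of the chaperonin (ENSG00000144381.18, chromosome 2 from 197486584 to 197516737, minus strand, GRCh38 coordinates as in the files). It was at 647, 647 and 641 CPM in the controls and at 780, 864 and 663 CPM in MYCN-induced replicates 1, 2 and 3. The groups did not overlap, but MYCN-induced replicate 3 was only just above the controls. The log2 fold change of 0.25 (SE, the standard error, 0.10, edgeR adjusted p = 0.212) did not pass the threshold, and its 95% interval ran from 0.03 to 0.48 before adjustment.
HSPE1 encodes the Hsp10 lid (ENSG00000115541.11, chromosome 2 from 197500140 to 197503449, plus strand). Its controls were at 78.6, 80.7 and 81.4 CPM and its induced libraries at 98.3, 98.2 and 83.7 CPM. As for HSPD1, replicate 3 was the lowest of the induced libraries and lay close to the controls. The log2 fold change was 0.22 (SE 0.08, edgeR adjusted p = 0.192). Without MYCN-induced replicate 3, both genes passed the threshold, HSPD1 with a log2 fold change of 0.36 (edgeR adjusted p = 0.0155) and HSPE1 with 0.30 (edgeR adjusted p = 0.0174), in a fit that called 3.68% of genes higher. Without MYCN-induced replicate 2, HSPD1 was at 0.16 (edgeR adjusted p = 0.389) and HSPE1 at 0.18 (edgeR adjusted p = 0.335).
The barrel and the lid kept nearly the same ratio per exon length. HSPE1 over HSPD1 was 0.51, 0.52 and 0.53 in the controls and 0.53, 0.48 and 0.53 in the induced libraries. Over the 6 libraries HSPE1 was also the gene of the 10 whose pattern of log2 CPM lay nearest to that of HSPD1, with a root mean square difference of 0.06. Their counts are not fully separate. The genes share 135 exon bases on opposite strands, the file headers show no strand option in the counting, and HSPE1 shares 192 of its 1823 exon bases with HSPE1-MOB4, a read-through gene that runs on into MOB4. HSPE1-MOB4 was at 77.1, 76.8 and 78.6 CPM in the controls and at 94.7, 93.1 and 81.5 CPM in the induced libraries (log2 fold change 0.21). Adding its counts to HSPE1 left the log2 fold change at 0.22 (edgeR adjusted p = 0.18). As both genes had nearly the same change, the sum could hardly move it and does not show how separate the counts are.

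HSPA9, also called mortalin, is the matrix Hsp70 that pulls proteins through the inner membrane and folds them (ENSG00000113013.16, chromosome 5 from 138553756 to 138575675, minus strand). It was at 377, 373 and 372 CPM in the controls and at 489, 528 and 584 CPM in the induced libraries. The controls agreed within a few CPM and every induced library lay far above them, with the highest value in replicate 3, where HSPD1 and HSPE1 had their lowest. HSPA9 rose 1.43-fold (log2 fold change 0.51, SE 0.08, edgeR adjusted p = 0.0173), the smallest p of the 10 genes. DESeq2 gave an adjusted p of 1.93e-05. Leaving out 1 control raised the edgeR adjusted p to 0.0776, 0.12 and 0.0939 without control replicates 1, 2 and 3, with the log2 fold change at 0.51 each time. SNORD63 and SNORD63B, small nucleolar RNAs within HSPA9, share 68 and 70 of its 9782 exon bases and were at 0.741 and 1.24 CPM on average in the controls.
DNAJA3, a J-domain partner that hands substrates to HSPA9 (ENSG00000103423.14, chromosome 16 from 4425805 to 4456775, plus strand), was at 28.27, 33.95 and 31.97 CPM in the controls and at 38.1, 42.0 and 41.1 CPM in the induced libraries. All induced values were higher than all control values. The log2 fold change of 0.36 (SE 0.09, edgeR adjusted p = 0.0743) missed the threshold, and DESeq2 put it past (adjusted p = 0.0206).
TRAP1, the matrix Hsp90 (ENSG00000126602.11, chromosome 16 from 3651639 to 3717553, minus strand), was at 77.2, 86.0 and 83.3 CPM in the controls and at 102, 110 and 109 CPM in the induced libraries. The 3 induced libraries lay close together and above all controls. TRAP1 rose 1.3-fold (log2 fold change 0.38, SE 0.07, edgeR adjusted p = 0.0303; 0.00112 from DESeq2). It shares 1531 of its 5183 exon bases (29.5%) with DNASE1 on the opposite strand, so pairs there were divided between both genes, and 65 with ENSG00000263235 on its own strand. For DNASE1 the log2 fold change was 0.13 (edgeR adjusted p = 0.477). TRAP1 was the less stable of the 2 calls: with library size as the only scaling its adjusted p from edgeR was 0.0586, and leaving out 1 library gave 0.0238 to 0.137, past the threshold only without MYCN-induced replicate 3. DNAJA3 and TRAP1 had the most similar patterns of any pair among the 10 genes, with a root mean square difference of 0.04 in log2 CPM.

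**Figure D2:**
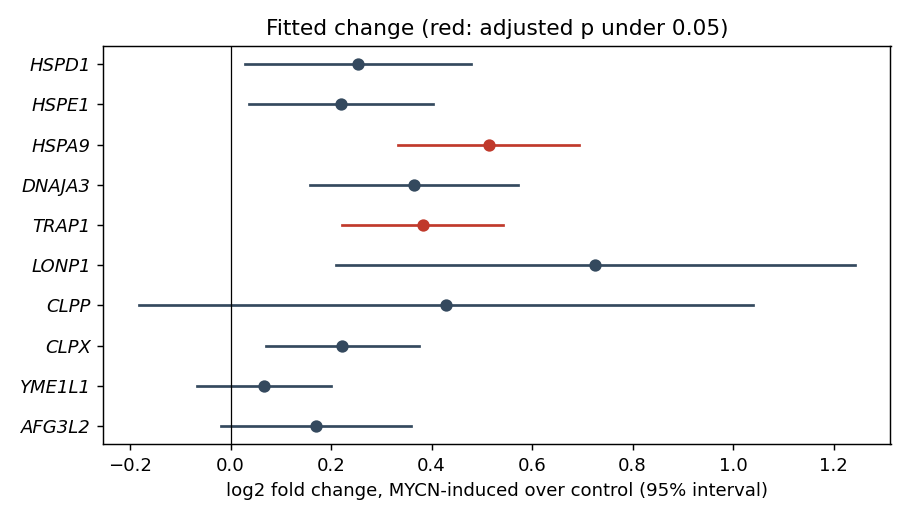
Fitted log2 fold change of each gene, MYCN-induced over control, with its 95% interval; HSPA9 (0.51) and TRAP1 (0.38), in red, had an adjusted p under 0.05. The intervals of LONP1 (0.21 to 1.24) and CLPP (-0.18 to 1.04) are the widest, and that of YME1L1 (-0.07 to 0.20) lies nearest to 0.

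LONP1, the main quality-control protease of the matrix (ENSG00000196365.12, chromosome 19 from 5691834 to 5720572, minus strand), had the largest fitted change of the 10 genes without passing the threshold. It was at 59.2, 84.6 and 97.8 CPM in the controls and at 105, 122 and 173 CPM in the induced libraries. The groups did not overlap, yet the highest control lay nearer to the lowest induced library than to the lowest control. The log2 fold change was 0.73 (SE 0.22, edgeR adjusted p = 0.132, 0.0317 from DESeq2). Without control replicate 1, the lowest, it was 0.54 (edgeR adjusted p = 0.302), and without MYCN-induced replicate 3, the highest, it was 0.50 (edgeR adjusted p = 0.174). By root mean square difference in log2 CPM over the 6 libraries, the genes nearest to LONP1 among 10157 others were FERMT3 (0.08), COL6A2 (0.10) and HPCAL1 (0.11). All of these had their lowest value in control replicate 1 and their highest in MYCN-induced replicate 3.
CLPP is the proteolytic barrel of ClpXP (ENSG00000125656.11, chromosome 19 from 6361531 to 6370242, plus strand). It was at 8.86, 12.5 and 17.9 CPM in the controls and at 13.7, 22.2 and 17.0 CPM in the induced libraries. The groups overlapped, with 1 control above 2 of the induced libraries. At 0.43, the log2 fold change had a standard error of 0.26 (edgeR adjusted p = 0.447), and it ran from 0.21 without control replicate 1 to 0.72 without control replicate 3 when 1 library was left out.
CLPX, the unfoldase that feeds CLPP (ENSG00000166855.9, chromosome 15 from 65148219 to 65185342, minus strand), was at 48.3, 48.7 and 47.8 CPM in the controls and at 54.2, 59.4 and 55.5 CPM in the induced libraries. In contrast to CLPP, its controls hardly differed and the groups stayed apart. With a log2 fold change of 0.22 (SE 0.07, edgeR adjusted p = 0.12), CLPX missed the threshold. The 2 subunits of ClpXP thus varied unequally, and CLPP over CLPX per exon length was 0.28, 0.40 and 0.58 in the controls and 0.39, 0.58 and 0.47 in the induced libraries.

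The inner membrane proteases showed the smallest differences. YME1L1, whose active site faces the intermembrane space (ENSG00000136758.19, chromosome 10 from 27110111 to 27155266, minus strand), was at 250, 249 and 255 CPM in the controls and at 262, 270 and 257 CPM in the induced libraries. The groups did not overlap, but they were only a few CPM apart. Its log2 fold change was 0.07 (SE 0.06, edgeR adjusted p = 0.597), with a 95% interval from -0.07 to 0.20.
AFG3L2, which faces the matrix (ENSG00000141385.10, chromosome 18 from 12328944 to 12377227, minus strand), was at 61.3, 59.9 and 56.1 CPM in the controls and at 67.3, 71.6 and 60.5 CPM in the induced libraries. MYCN-induced replicate 3 fell within the range of the controls. Its log2 fold change was 0.17 (SE 0.08, edgeR adjusted p = 0.317), and without MYCN-induced replicate 3 it was 0.24 (edgeR adjusted p = 0.0496). Without MYCN-induced replicate 2, the highest, it was 0.11 (edgeR adjusted p = 0.54). AFG3L2 shares 837 of its 6537 exon bases with TUBB6 on the opposite strand (log2 fold change 0.20, adjusted p = 0.415 from edgeR), and YME1L1 shares 443 of 7336 with MASTL (-0.06, adjusted p = 0.889 from edgeR). LONP1 shares 42 bases with RPL36, and CLPP 35 with ENSG00000269802.

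**Figure D3:**
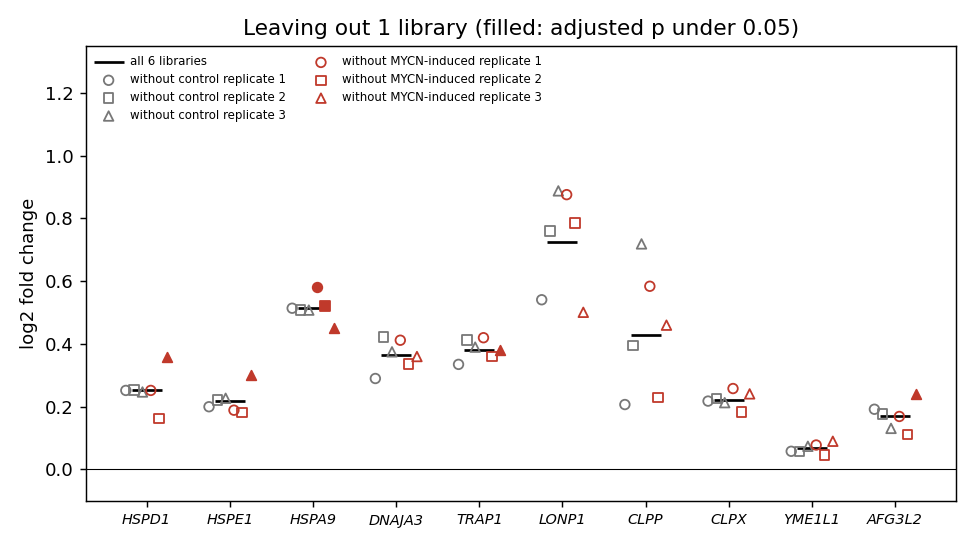
Log2 fold change of each gene with all 6 libraries (bar) and with 1 library left out (grey for a control, red for an induced library, shape for its replicate number; filled where the adjusted p from edgeR was under 0.05). All values are above 0, and the red triangles of HSPD1, HSPE1, HSPA9, TRAP1 and AFG3L2 are filled.

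The dependence on MYCN-induced replicate 3 was not the same for all genes. In CPM, it held the highest induced value of HSPA9 and LONP1 and the lowest of HSPD1, HSPE1, YME1L1 and AFG3L2. Without it, 5 of the 10 genes were called higher, namely HSPD1, HSPE1, HSPA9, TRAP1 and AFG3L2. That fit called 3.68% of all tested genes higher. HSPA9 and TRAP1 both missed the threshold when any of the controls was left out, and no other of the 10 genes passed it then. Calls fell over the whole set of genes as well. Without control replicates 1, 2 and 3 in turn, 46, 18 and 30 genes were called higher, against 298 with all libraries. All 10 log2 fold changes stayed above 0 in each of these fits.

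Compared per exon length, the 10 genes covered a wide range of levels in the controls. HSPD1 was the highest at 139 ± 7.66 TPM (SD, n = 3), followed by HSPE1 at 72.2 ± 2.37, HSPA9 at 62.8 ± 3.58 and YME1L1 at 56.2 ± 2.40 TPM. LONP1 at 26.1 ± 5.17 and TRAP1 at 25.99 ± 0.969 TPM came next and their ranges overlapped. AFG3L2 at 14.9 ± 1.39 and CLPX at 14.5 ± 0.807 TPM overlapped as well, and so did DNAJA3 at 7.28 ± 0.488 and CLPP at 6.02 ± 1.81 TPM. The other neighbours in this order did not overlap. The exon length of a gene is the union over all its annotated transcripts, and for HSPE1 these merge into 2 blocks of 1823 bases, so its level rests on that length.
The TPM scale also moved the libraries against each other. The median gene of MYCN-induced replicate 3 was -0.23 (log2) from the control mean in TPM, against 0.03 and 0.14 in replicates 1 and 2. In TPM, HSPD1 was at 147, 138 and 131 in the controls and at 172, 208 and 124 in the induced libraries, so that MYCN-induced replicate 3 lay below every control. HSPA9 was at 66.6, 62.2 and 59.6 TPM in the controls and at 84.1, 99.0 and 84.8 TPM in the induced libraries, and the groups stayed apart. In all, 4 of the 10 genes (HSPA9, DNAJA3, TRAP1 and LONP1) had every induced library above every control in TPM, which held for 7.55% of tested genes.

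**Figure D4:**
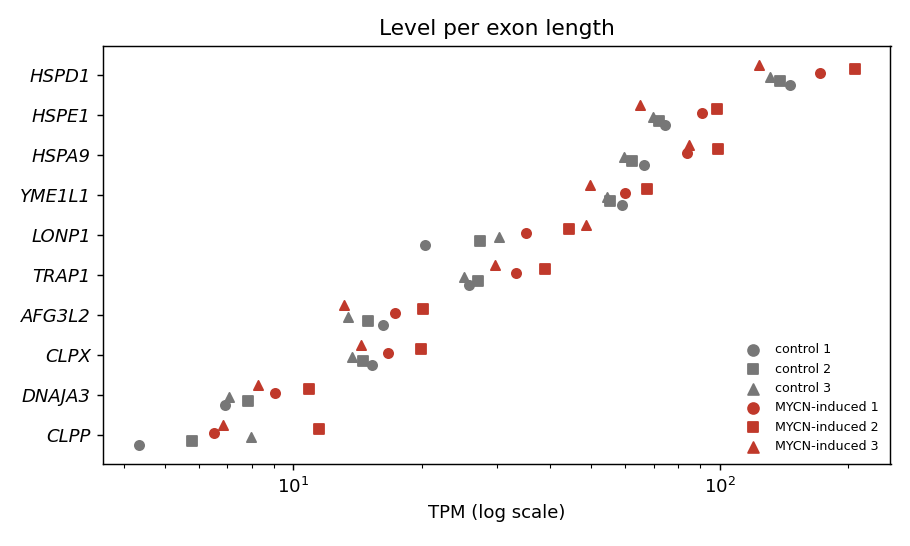
Level of each gene in TPM (log axis) in the 3 control (grey) and 3 MYCN-induced libraries (red), ordered by the control mean, with the marker shape giving the replicate number. HSPD1 is highest at 124 to 208 TPM, and the red triangle of replicate 3 lies to the left of the controls for HSPD1, HSPE1, YME1L1 and AFG3L2.

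Other genes of mitochondrial protein quality control had medians nearer to 0. Their unadjusted counts stand beside the 8.13% of all tested genes that were higher and the 10.6% that were lower at that threshold. Of 20 genes of protein import and HSPA9 partners, 1 was called higher and 0 lower (8 unadjusted, 7 of them higher; 3 higher with DESeq2), with a median log2 fold change of 0.11. The one called was GRPEL2, a nucleotide exchange factor that resets HSPA9, at 62.2, 58.3 and 59.9 CPM in the controls and 84.5, 77.8 and 108 CPM in the induced libraries (log2 fold change 0.58, SE 0.12, edgeR adjusted p = 0.0441). Its paralog GRPEL1, named here after its value was seen, was at 0.10 (edgeR adjusted p = 0.468). Of 17 other proteases and their scaffolds, 1 was called higher and 0 lower (2 each way unadjusted; 1 higher with DESeq2), with a median of 0.08. This was MIPEP, an intermediate peptidase that trims imported proteins, at 8.82, 9.14 and 8.45 CPM in the controls and 12.2, 13.3 and 11.9 CPM in the induced libraries (log2 fold change 0.50, SE 0.09, edgeR adjusted p = 0.0342). With library size as the only scaling 0 of these 17 were called, and with a filter of at least 100 counts in every library 0 of the import genes were. SPG7, which forms a mixed ring with AFG3L2 and was also named after its value was seen, stood at -0.17 on the log2 scale (edgeR adjusted p = 0.254).
Of the 5 transcription factors linked to this response, ATF4, ATF5, DDIT3 and CEBPB had larger fitted changes than each of the 10 genes, and HSF1 did not. ATF4 was at 189, 189 and 204 CPM in the controls and at 319, 300 and 547 CPM in the induced libraries (log2 fold change 1.01, SE 0.21, edgeR adjusted p = 0.0475). It was the only one of 5 called, none being called with the filter of at least 100 counts and 4 with DESeq2, and the others were CEBPB at 1.33 (adjusted p = 0.0587), ATF5 at 1.01 (0.132), DDIT3 at 0.96 (0.162) and HSF1 at 0.31 (0.551), all from edgeR. In CPM, all 5 had their highest value in MYCN-induced replicate 3, as HSPA9 and LONP1 had. In TPM, HSPA9 was highest in MYCN-induced replicate 2 (99.0, against 84.8 in replicate 3). All but HSF1 had every induced library above every control in CPM, which held for 11.5% of all tested genes. A link between these patterns was not tested.
Of 5 tested mitochondrial antioxidant enzymes, 0 were called by edgeR (1 higher unadjusted, 1 higher with DESeq2). Their log2 fold changes ran from -0.08 for PRDX3 to 0.27 for GLRX2 (adjusted p = 0.774 and 0.0882 from edgeR). Of 8 tested chaperones of the same families in the cytosol and endoplasmic reticulum, 0 were called by edgeR (1 higher unadjusted, 0 with DESeq2), with a median of 0.06. They ran from 0.00 for DNAJB1 (adjusted p = 0.981) to 0.19 for HSPA8 (0.188), both from edgeR. HSPA1A and HSPA1B, the heat-inducible forms of Hsp70, did not pass the filter and SOD2 found no match among the symbols. HSPA1A was at 0 CPM in every library and HSPA1B at 0.00955 CPM or less. Only unique alignments were counted, so reads that match several genes alike were left out. Whether HSPA1A and HSPA1B were expressed cannot be read from these values.

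**Figure D5:**
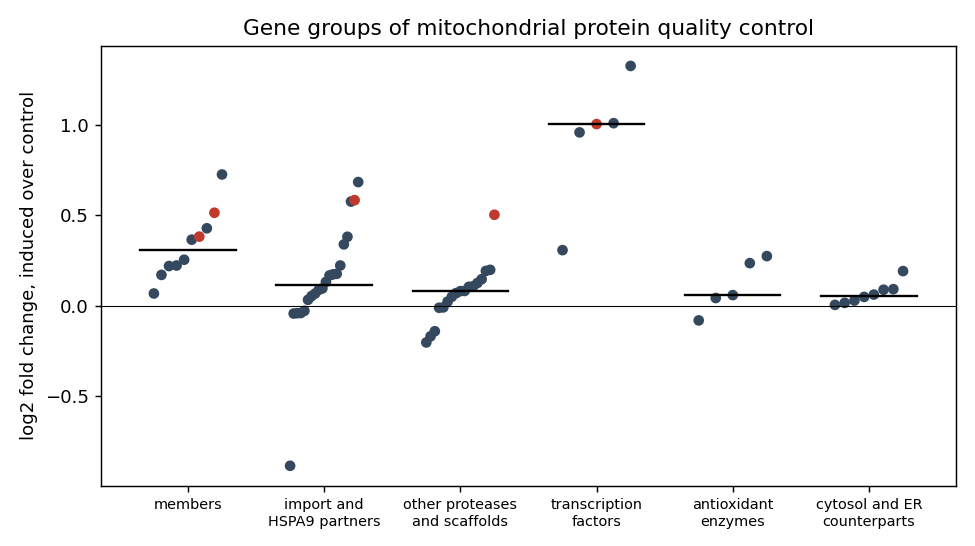
Log2 fold change of each tested gene, MYCN-induced over control, by gene group (members are the 10 chaperones and proteases), with the group median as a line and genes with an adjusted p under 0.05 in red. The 10 genes have a median of 0.31, the import and protease groups 0.11 and 0.08, and the transcription factors 1.01.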

How the data were processed

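The authors aligned reads to GRCh38 with STAR 2.7.1a and deposited estimated counts, read pairs per gene over exons. Per the file headers, featureCounts v1.6.4 counted unique alignments, shared pairs over several genes in equal fractions and used no strand option, while the labels name version 1.5.1 and the methods a strand option. Between 31.9% and 33.4% of values above 0 were not whole. Symbols came from a table of gene identifiers and names (99.65% of 60651 matched), 81 of 82 listed genes were found, and 92 spike-in rows, all at 0, were left out.

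Counts were rounded. A minimum of 10 counts in 3 or more libraries left 29086 genes, to which edgeR 4.0.16 was applied (R 4.3.3, TMM, quasi-likelihood, no replicate block, Benjamini-Hochberg over all genes, threshold 0.05). The standard error is the log2 fold change divided by the square root of F. CPM are TMM-normalized, and patterns were compared on log2 CPM with a prior count of 2. TPM used the deposited exon lengths. DESeq2 1.42.0, other scalings and filters, the replicate block and leaving out each library were alternatives. All replicate pairs differed beyond sampling noise (chi-square per gene 12.1 to 145.6), and the biological coefficient of variation was 0.153. The scripts were tested on simulated data.

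The members and lists were chosen with earlier results of these data known. Beside the 10 genes, the text names MYCN, genes overlapping a member, the called genes of each list (else the largest and smallest change), and the 3 genes nearest in pattern to the member with the largest change, among those at 10 CPM or more. Outside this rule, all 5 transcription factors are given, and GRPEL1, SPG7, TIMM44 and TOMM40 were named after their values were seen. One marker gene of the cell line is not reported here.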

Additional observations from a re-analysis of the deposited data

How the results depend on the processing

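The log2 fold changes of all 10 genes stayed above 0 under every alternative run. Of the 10, 2 were called higher with all libraries, and 1 with library size only, 4 with DESeq2 and 0 to 5 with 1 library left out. Their median, 0.309, ran from 0.206 (without MYCN-induced replicate 2) to 0.359 (without MYCN-induced replicate 3) when 1 library was left out. In TPM, chosen after the data were seen, 4 in place of 8 of the genes had every induced library above every control. For import genes called higher, library size only, upper-quartile normalization, no count filter and the replicate block gave 2, DESeq2 3, a filter of at least 100 counts in every library 0, and leaving out 1 library 0 to 2. For other proteases the value was 0 with library size only, upper-quartile normalization and the replicate block, and 0 to 1 with 1 library left out. For the transcription factors it was 2 with library size only, upper-quartile normalization, no count filter and the block, 4 with DESeq2, 0 with at least 100 counts, and 0 to 4 with 1 library left out. Of the antioxidant enzymes, DESeq2 called 1, and leaving out 1 library gave 0 to 1. Across all genes, 298 were higher and 692 lower, against 904 and 1199 with DESeq2, 470 higher without a filter, 404 lower with at least 100 counts, and 18 to 1060 higher and 72 to 1279 lower with 1 library left out (lowest without control replicate 2, highest without MYCN-induced replicate 3).

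With the replicate block, 3 of the 10 genes were called higher, LONP1 (adjusted p = 0.0144 from edgeR) beside HSPA9 (0.0314) and TRAP1 (0.0428), and 265 genes in all were higher and 575 lower. The correlation of deviations from the group means was 0.216, -0.019 and 0.074 for the libraries sharing numbers 1, 2 and 3. For the other pairs of a control and an induced library it ran from -0.193 to 0.082, so 0.216 was the highest. The labels do not say whether same numbers belong together, and the main fit did not pair them. In that fit, without the block, LONP1 had an adjusted p of 0.132 from edgeR. The cause of these shifts was not tested. The 10 genes had from 888.5 counts (CLPP) to 80495.5 counts (HSPD1) in a library. Their standard errors ran from 0.06 for YME1L1, with a log2 fold change of 0.07, to 0.26 for CLPP, with 0.43. Each group held only 3 libraries, which limits what can be called.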

Other observations

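In control replicate 1 several of the genes named above stood low, a pattern picked after the values were seen. LONP1 was there at 59.2 CPM against 84.6 and 97.8 in the other controls, and CLPP at 8.86 against 12.5 and 17.9. TIMM44, a subunit of the import motor that binds HSPA9, was at 23.3 against 30.3 and 32.9 CPM, TOMM40, the channel of the outer membrane, at 62.9 against 91.4 and 93.9 CPM, and HSF1 at 17.6 against 30.3 and 31.8 CPM. RPL36, whose exons overlap those of LONP1, was at 124 against 223 and 271 CPM. DNAJA3 (28.27 against 33.95 and 31.97 CPM) and TRAP1 (77.2 against 86.0 and 83.3 CPM) were also lowest in control replicate 1, by a smaller step. Without that library their log2 fold changes were 0.29 and 0.335, against 0.365 and 0.382 with all libraries. HSPD1, HSPE1, HSPA9, CLPX and YME1L1 showed no such step, with controls of 647, 647 and 641 CPM for HSPD1. AFG3L2 was highest in control replicate 1 among the controls. The cause was not tested.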
